A study of Mus musculus with 4 samples.

Results

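Arginine handling was followed through 10 genes that carry arginine into the cell, split it, turn it into nitric oxide, or build and break down polyamines. They are the transporters Slc7a1 and Slc7a2, the arginases Arg1 and Arg2, the nitric oxide synthase Nos2, the ornithine decarboxylase Odc1 and its antizyme Oaz1, the synthases Srm and Sms, and the acetyltransferase Sat1. The genes were chosen by symbol from the 24497 mouse entries of 1 expression table, with the difference between the study's groups already known, so that difference is described for them and not tested. All 10 were found and all 10 passed the filter on low values, which left 11837 genes. RNA-seq was done on cultured mouse acute myeloid leukemia cells in 4 libraries, 2 labelled WT and 2 labelled Tet2 KO. Both groups carry NRAS and AE9a, the truncated AML1-ETO fusion, and were set up from hematopoietic stem cells of bone marrow. The WT cells came from wild-type animals and the Tet2 KO cells from Tet2-/- animals, in which exons 8 to 10 of Tet2, an oxidase of 5-methylcytosine, are missing. All cells were kept in RPMI medium under the same additions, namely 3 murine cytokines (IL-6 and IL-3 at 10 ng/ml, SCF at 50 ng/ml) and the selection drugs puromycin (2 µg/ml) and G418 (1 mg/ml), and no treatment is labelled. The sources used here do not give whether a group is 1 clone, how many animals it stands for, or their age. The question of the comparison is which transcripts differ with the Tet2 genotype in these leukemic cells.

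Arginine is a cationic amino acid that enters myeloid cells through the SLC7 transporters, known as CAT1 (Slc7a1) and CAT2 (Slc7a2). Arginase hydrolyses it to ornithine and urea, and the inducible nitric oxide synthase oxidises it to nitric oxide and citrulline, so both enzymes draw on the same substrate. Ornithine decarboxylase turns ornithine into putrescine, which the spermidine and spermine synthases extend to spermidine and spermine. Polyamines feed back by making ribosomes shift frame on antizyme mRNA, and the antizyme protein then sends ornithine decarboxylase to the proteasome. Arg1 is known in myeloid cells as a marker of alternative activation and of cells that deplete arginine around T cells.

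Values are TPM, the usual unit for transcript levels that is corrected for transcript length, so levels can be compared between genes. A log2 difference is Tet2 KO minus WT on log2(TPM + 1), which understates differences at low TPM, and is given with its moderated standard error (SE). Means are given with the SD of 2 libraries (n = 2). Between 11630 and 11731 entries reached 1 TPM in a library, and read depth is unknown. The spike-in RNAs took 2.98% and 3.30% of the total in WT and 3.41% and 3.39% in the Tet2 KO libraries. WT replicate 1 had the lowest share, so results of scaling to the spike-ins rest partly on that library. Tet2 itself was at 35.0 and 40.0 TPM in WT and at 53.5 and 52.8 TPM in the Tet2 KO libraries. That value covers the whole gene and cannot check a deletion of exons 8 to 10, so directions are drawn by label. Over all kept genes 3606 were past the threshold (adjusted p under 0.05), 2237 higher and 1369 lower, and the median log2 difference was 0.04. Without Tet2 KO replicate 1 or Tet2 KO replicate 2 the count was 1239 or 1288, so the shares of all genes used for comparison below depend on these libraries. The share of higher genes among those past the threshold was 62.0% as deposited, 48.6% with trimmed-mean scaling and 29.9% with scaling to the spike-ins, which lowered the median of all genes by 0.11 to -0.07.

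In the Tet2 KO libraries Arg1, Slc7a2 and Arg2 were much lower than in WT, Nos2 and Sat1 were slightly lower, and Slc7a1 and Sms were slightly higher. Odc1, Oaz1 and Srm stood within 0.04 of no difference on the log2 scale. Of the 10 genes 7 were past the threshold, beside 30.5% of all kept genes. In the higher direction they were 2, beside 18.9%, and in the lower direction 5, beside 11.6%. In 8 of the 10 the groups did not overlap, as in 68.6% of kept genes. These counts follow from the choice of genes and support nothing further. The same holds wherever 1 of these genes is said to be past the threshold or not, which describes the fit and is no test of that gene. The median log2 difference of the 10 genes was -0.06. With spike-in scaling 0 of them were past the threshold as higher and 4 as lower. Leaving out WT replicate 1 left 5 past the threshold, WT replicate 2 left 6, and either Tet2 KO library left 4, as did an adjusted p under 0.01. No gene past the threshold changed sign under any alternative that was run.

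**Figure D1:**
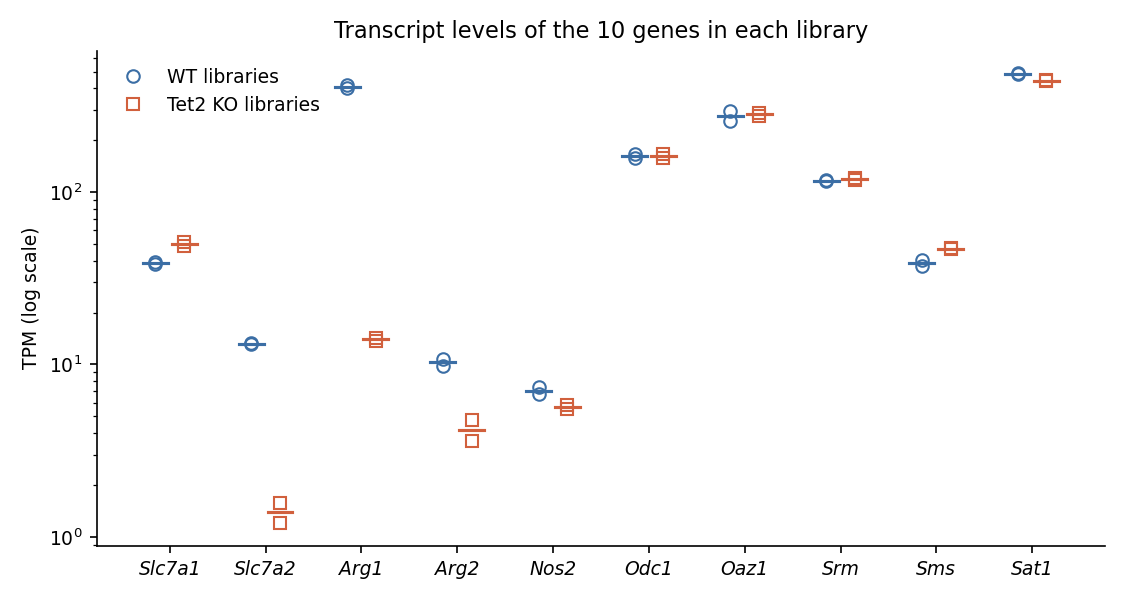
TPM on a log axis of the 10 genes in each library, with open circles for the 2 WT libraries, open squares for the 2 Tet2 KO libraries and a bar at each group's mean. Arg1 drops from 409 to 14.0 TPM and Slc7a2 from 13.2 to 1.39, while the Odc1 and Oaz1 symbols of both groups cover the same range.

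The transcripts of the related transporters Slc7a1 and Slc7a2 differed in opposite directions. Slc7a1, the constitutive transporter CAT1 on chromosome 5 (148327410 to 148399904, minus strand, GRCm38), was at 39.1 and 38.2 TPM in WT and at 49.0 and 51.2 TPM in the Tet2 KO libraries. Both Tet2 KO libraries were above both WT libraries. The means were 38.7 ± 0.59 and 50.1 ± 1.58 TPM, a log2 difference of 0.36 (SE 0.043), which was 0.25 and no longer past the threshold with spike-in scaling. Slc7a2, the inducible transporter CAT2 on chromosome 8 (40862396 to 40922308, plus strand), was at 13.2 and 13.1 TPM in WT and at 1.58 and 1.20 TPM in the Tet2 KO libraries. The groups were far apart and the WT libraries nearly equal. The means were 13.2 ± 0.078 and 1.39 ± 0.27 TPM, a 9.49-fold lower level. The log2 difference of -2.57 (SE 0.10) ran from -3.17 with a pseudocount of 0.1 to -1.51 with a pseudocount of 5, since the Tet2 KO level is close to the pseudocount. These are whole cultures, so fewer cells that make Slc7a2 and less Slc7a2 RNA per cell cannot be told apart, here as for every gene.

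The coding sequences of the transporters are shown because the summed level below treats them as separate transcripts. Over 1833 aligned coding bases 66.0% were identical and the longest identical run was 23 bases. The most alike stretch of 90 bases, with the 13 differing bases in capitals, reads as follows in the GENCODE transcripts Slc7a1-201 (coding bases 1161 to 1250) and Slc7a2-204 (coding bases 1236 to 1325).
Slc7a1: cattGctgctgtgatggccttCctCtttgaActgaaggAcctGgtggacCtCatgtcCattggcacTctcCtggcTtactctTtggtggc
Slc7a2: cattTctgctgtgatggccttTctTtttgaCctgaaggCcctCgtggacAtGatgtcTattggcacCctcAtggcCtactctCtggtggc
Even in that stretch a differing base falls at short intervals. No 50-base window of Slc7a2 was found in another annotated gene, and 0.224% of the Slc7a1 windows were. Reads of that length would therefore rarely be shared between the pair, although the read length is not given in the sources used here.

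Added together, the transporters differed by less than the spread between replicates. Slc7a1 plus Slc7a2 came to 52.3 and 51.4 TPM in WT and to 50.5 and 52.4 TPM in the Tet2 KO libraries. The 2 groups overlapped, with means of 51.8 ± 0.67 and 51.5 ± 1.31 TPM and a log2 ratio of -0.01. That near-equality holds on the deposited scale, since the ratio was -0.06 with trimmed-mean scaling and -0.13 with spike-in scaling. What differed was the make-up of the sum. Slc7a2 gave 25.3% and 25.6% of it in WT and 3.13% and 2.29% in the Tet2 KO libraries. Slc7a1 was 2.95 and 2.91 times the level of Slc7a2 in WT, and 31.0 and 42.6 times that level in the Tet2 KO libraries.

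Of the 10 genes, Arg1 differed the most. Arg1, the cytosolic arginase on chromosome 10 (24915221 to 24927484, minus strand), was at 402 and 416 TPM in WT and at 14.3 and 13.7 TPM in the Tet2 KO libraries. In WT it stood at rank 317 and rank 306 of all entries by level, and in the Tet2 KO libraries at rank 7335 and rank 7500. The means were 409 ± 9.74 and 14.0 ± 0.42 TPM, a 29.3-fold lower level and a log2 difference of -4.78 (SE 0.040). Arg2, the mitochondrial arginase on chromosome 12 (79130777 to 79156301, plus strand), was at 9.78 and 10.8 TPM in WT and at 3.62 and 4.74 TPM in the Tet2 KO libraries. It too was lower in both Tet2 KO libraries, by much less. The means of 10.3 ± 0.73 and 4.18 ± 0.79 TPM gave a 2.46-fold lower level and a log2 difference of -1.13 (SE 0.12), which was -0.74 with a pseudocount of 5.

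The arginases catalyse the same reaction from separate genes, and reads are shared between them only where their sequences match. Over 958 aligned coding bases 64.9% were identical, with a longest identical run of 12. No 50-base window of Arg1 was found in another annotated gene. Arg2 shares sequence with a neighbour instead, because its end overlaps Vti1b (79156017 to 79172667, minus strand), a SNARE gene read from the opposite strand. On either strand, 17.1% of Arg2 windows were found in Vti1b transcripts. Vti1b was at 78.0 and 71.4 TPM in WT and at 65.2 and 68.4 TPM in the Tet2 KO libraries. Whether the counting used strand is not given in the sources used here, so the level of Arg2, far below that of its neighbour, is uncertain.

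Total arginase transcript followed Arg1. Arg1 plus Arg2 was 412 and 427 TPM in WT and 17.9 and 18.4 TPM in the Tet2 KO libraries, with means of 420 ± 10.5 and 18.1 ± 0.37 TPM and a log2 ratio of -4.53. Since Arg1 was lower by a larger factor, Arg2 took a larger share of what remained. Its share was 2.37% and 2.53% in WT and 20.2% and 25.8% in the Tet2 KO libraries. Arg1 stayed the more abundant arginase in every library, at 41.2 and 38.5 times Arg2 in WT and 3.94 and 2.88 times in the Tet2 KO libraries. These shares and ratios are as uncertain as the level of Arg2, given the sequence it shares with Vti1b.

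**Figure D2:**
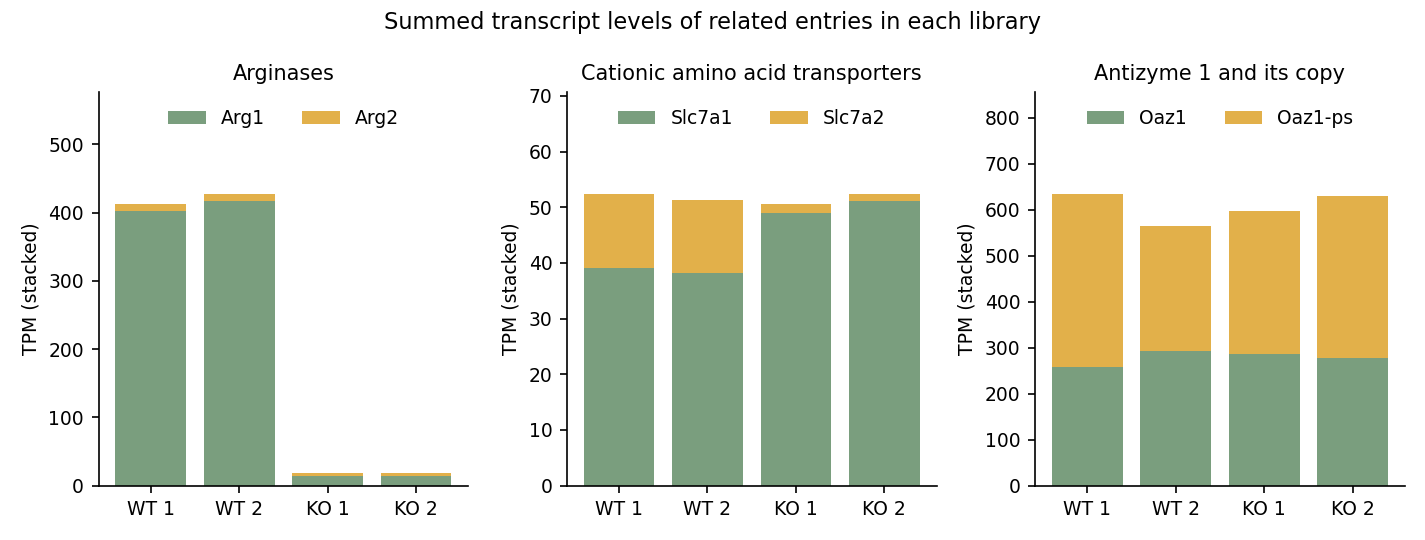
Stacked bars of TPM in each library, from 0, for the arginases, the cationic amino acid transporters, and antizyme 1 with its processed copy, with a separate axis for each panel. The arginase bars fall from 412 and 427 TPM to 17.9 and 18.4 TPM, whereas the transporter bars stay between 50.5 and 52.4 TPM while their Slc7a2 section shrinks.

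Markers listed for several myeloid cell types also differed between the groups, some higher and some lower. Counts that rose or fell are those past the threshold, beside 18.9% of all kept genes higher and 11.6% lower. The marker lists, too, were chosen with earlier results known, so the counts are a description. Of 11 neutrophil markers, all kept, 10 fell and 0 rose. Their summed level was 44296 to 44920 TPM in WT and 22490 to 22782 TPM in the Tet2 KO libraries. Most of that sum was S100a8 (means of 17883 and 9119 TPM) and S100a9 (19755 and 10456 TPM). The sums given here follow the most abundant markers of each list and not the list as a whole. For macrophages 8 of 12 markers were kept, of which 2 rose and 2 fell, with a sum of 882 to 901 TPM in WT and 699 to 711 TPM in the Tet2 KO libraries. Within that list Mrc1, the mannose receptor of alternatively activated macrophages, went from 209 to 48.8 TPM and Cd68 from 244 to 170 TPM. Adgre1, which encodes F4/80, went the other way, from 329 to 382 TPM. Marco and Timd4 were listed at 0 in every library. The eosinophil list summed to 47.4 to 52.9 TPM in WT and 47.9 to 49.2 TPM in the Tet2 KO libraries, with 3 of 8 markers kept, 1 higher and 2 lower. In it Siglecf rose from 33.9 to 46.7 TPM, Prg2, a granule protein, fell from 14.2 to 1.20 TPM, and Ear2 fell from 1.29 TPM to a level listed at 0. Of 8 mast cell and basophil markers 6 were kept, 1 higher and 3 lower, with sums of 1955 to 2032 and 2075 to 2142 TPM. There Cpa3, which made up most of the sum, rose from 1334 to 1637 TPM. The proteases Tpsb2 (81.4 to 25.5 TPM) and Cma1 (15.9 to 4.96 TPM) and the histidine decarboxylase Hdc (211 to 98.7 TPM) fell. The 8 markers of leukemic myeloid progenitors summed to 1549 to 1608 TPM in WT and 1903 to 1949 TPM in the Tet2 KO libraries, 5 higher and 1 lower of 7 kept. Ptprc, Cd34 and Mpo of that list were well above the filter in all libraries, and Flt3 did not exceed 0.43 TPM. Among lymphoid markers 0 were kept, and Cd3e, Ms4a1 and Ncr1 were listed at 0. Stromal and endothelial markers had 1 of 6 kept, which was higher. The part of these cell type differences in the levels of Arg1, Slc7a2 and the other genes was not tested.

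Nos2, the inducible nitric oxide synthase that competes with arginase for arginine, was the least abundant of the genes in WT. On chromosome 11 (78920787 to 78960254, plus strand), it was at 7.36 and 6.75 TPM in WT and at 5.80 and 5.48 TPM in the Tet2 KO libraries. The groups did not overlap, but the gap between them was not much wider than the spread within WT. The means were 7.05 ± 0.43 and 5.64 ± 0.23 TPM, a log2 difference of -0.28 (SE 0.079) that was -0.18 with a pseudocount of 5. It was no longer past the threshold in 10 of the 18 alternatives, among them leaving out any 1 of the 4 libraries. Arg1 stood far above Nos2 in WT, and in the Tet2 KO libraries both were at low levels, at 14.0 and 5.64 TPM.

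At the first step of polyamine synthesis the groups overlapped. Odc1, ornithine decarboxylase on chromosome 12 (17544794 to 17551505, plus strand), was at 167 and 157 TPM in WT and at 158 and 166 TPM in the Tet2 KO libraries. Each Tet2 KO value lay between the WT values. The means were 162 ± 6.72 and 162 ± 5.78 TPM, a log2 difference of 0.00 (SE 0.045), which was -0.11 with spike-in scaling. Of the 50-base windows of Odc1, 42.2% were found in other annotated genes and 14.1% in the 2 of these that the table lists. The latter, AW146154 and the pseudogene Gm15645, were at no more than 3.56 and 0.75 TPM in any library, far below Odc1.

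Oaz1, antizyme 1 on chromosome 10 (80826656 to 80829290, plus strand), has a processed copy, Oaz1-ps, on chromosome 17 (17345456 to 17346140, minus strand). Their values can be told apart only in part, since they depend on how shared reads were divided. The following stretch is shown for the site where antizyme translation shifts frame, with the stop codon of the first reading frame in capitals. It covers bases 40 to 129 of transcript Oaz1-205 and 160 to 249 of Oaz1-ps-201, and 90 of 90 bases are identical.
Oaz1: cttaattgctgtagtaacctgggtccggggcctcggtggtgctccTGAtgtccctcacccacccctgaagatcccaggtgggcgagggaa
Oaz1-ps: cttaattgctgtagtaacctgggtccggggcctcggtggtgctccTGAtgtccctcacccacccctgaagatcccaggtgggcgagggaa
The copy thus keeps the frameshift stop. Over the 681 annotated coding bases of Oaz1-207 the copy was identical at 680, and the differing base is in capitals in bases 96 to 155 of both.
Oaz1: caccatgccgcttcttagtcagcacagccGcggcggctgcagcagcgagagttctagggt
Oaz1-ps: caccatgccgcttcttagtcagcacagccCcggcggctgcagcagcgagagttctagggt
Only reads across that base, or beyond the copied part, can tell the entries apart. Of the 50-base windows of Oaz1-207, 53.9% were found in the copy, and the longest identical run of its coding bases was 477. Unlike Oaz1-205, that model does not keep every base at the frameshift stop, so windows across the stop were not counted.

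Oaz1 was at 257 and 293 TPM in WT and at 287 and 278 TPM in the Tet2 KO libraries, with overlapping groups and a log2 difference of 0.04 (SE 0.065). Oaz1-ps was listed at 376 and 272 TPM in WT and at 311 and 352 TPM in the Tet2 KO libraries. Within each group the library with the higher Oaz1 had the lower copy. The sum of the entries was 634 and 565 TPM in WT and 598 and 630 TPM in the Tet2 KO libraries, and the groups overlapped. Its means were 599.7 ± 48.4 and 614 ± 22.4 TPM, with a log2 ratio of 0.03. Neither the antizyme entry nor the sum showed a difference larger than the spread within WT.

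Of the aminopropyl transferases downstream, Srm stood close to WT and Sms was slightly higher. Srm, spermidine synthase on chromosome 4 (148591503 to 148594993, plus strand), was at 115 and 117 TPM in WT and at 121 and 117 TPM in the Tet2 KO libraries. The groups were separated only by 117.25 against 117.30 TPM, and the log2 difference was 0.03 (SE 0.035), or -0.01 with trimmed-mean and -0.08 with spike-in scaling. Sms, spermine synthase on chromosome X (157443855 to 157492287, minus strand), was at 40.1 and 37.0 TPM in WT and at 46.9 and 47.1 TPM in the Tet2 KO libraries. Both Tet2 KO libraries were above both WT libraries. The means were 38.6 ± 2.14 and 47.0 ± 0.16 TPM, a log2 difference of 0.28 (SE 0.050). It was 0.17 and not past the threshold with spike-in scaling, and it was not past the threshold at an adjusted p under 0.01 or without either Tet2 KO library. For Sms 28.7% of 50-base windows were found in other annotated genes, but 3.22% in an entry of the table.

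Sat1, the acetyltransferase that marks spermidine and spermine for export or oxidation, had the highest level of the 10 entries in both groups, below the sum of Oaz1 and its copy. On chromosome X (155213132 to 155216449, minus strand), it was at 489 and 481 TPM in WT and at 448 and 439 TPM in the Tet2 KO libraries. Both Tet2 KO libraries were lower. The means were 485 ± 5.35 and 444 ± 6.33 TPM, a log2 difference of -0.13 (SE 0.031), or -0.25 with spike-in scaling, where it was not past the threshold. It was not past the threshold in 8 of the 18 alternatives, including leaving out WT replicate 1 or either Tet2 KO library.

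By level of the entries as listed, the order in WT was Sat1, Arg1, Oaz1, Odc1, Srm, Slc7a1, Sms, Slc7a2, Arg2 and Nos2, and the only neighbours whose libraries overlapped were Slc7a1 and Sms. In the Tet2 KO libraries it was Sat1, Oaz1, Odc1, Srm, Slc7a1, Sms, Arg1, Nos2, Arg2 and Slc7a2, and no neighbours overlapped. The place of Oaz1 rests on how reads were divided with Oaz1-ps, since the sum of these entries was above Sat1 in every library. On this order Arg1 was in the second place in WT and the seventh in the Tet2 KO libraries, and Slc7a2 in the eighth and the last.

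Around the 10 genes, 77 others of arginine and polyamine metabolism were listed by role, and 61 were kept. In the limma fit across all genes 13 rose, 9 fell and 39 did not pass, so 36.1% were past the threshold beside 30.5% of all kept genes. Their median log2 difference was 0.01, against 0.04 over all kept genes. The split was 11 higher and 13 lower with trimmed-mean scaling and 7 and 9 with spike-in scaling. Without Tet2 KO replicate 1 or Tet2 KO replicate 2, 10 and 11 of them passed, and 10 of the 22 passed under every alternative in which they were kept. Any p-value given for them reflects the spread of these 4 libraries alone. That spread may be technical, as no source used here says that replicates were separate cultures. The lists were also chosen with earlier results of these data known, and genes past the threshold were the first to be named. The share past the threshold and the p-values below therefore describe the fit and are no independent test.

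Among genes listed for cationic amino acid transport, which include chains of a neutral amino acid exchanger, 3 of 11 kept rose and 2 fell. Slc7a5 and Slc3a2 encode the chains of the large neutral amino acid exchanger LAT1, whose heavy chain also pairs with cationic exchangers. Slc7a5 rose from 119 ± 4.36 to 191.1 ± 5.17 TPM (log2 difference 0.68, SE 0.041, adjusted p = 4.8e-04). Slc3a2 rose from 147 ± 1.92 to 203 ± 4.64 TPM (0.46, SE 0.034, adjusted p = 9.2e-04). Slc7a3, known as CAT3, rose from 0.67 ± 0.18 to 2.40 ± 0.35 TPM (1.03, SE 0.15, adjusted p = 0.0071) and stayed far below Slc7a1. The carriers that fell sit on organelles. Slc66a1, listed as Pqlc2, the lysosomal exporter of cationic amino acids, fell from 4.48 ± 0.042 to 2.42 ± 0.11 TPM (-0.68, SE 0.090, adjusted p = 0.0052). Slc25a29, a mitochondrial carrier of basic amino acids, fell from 4.01 ± 0.27 to 2.57 ± 0.30 TPM (-0.49, SE 0.11, adjusted p = 0.024), a call lost without any 1 of the 4 libraries. Slc7a6, an exchanger that pairs with Slc3a2, was at 23.5 and 25.8 TPM (adjusted p = 0.12), and Slc7a9 was listed at 0 in every library.

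The enzymes that rebuild arginine from citrulline were present at similar levels in both groups. Ass1, argininosuccinate synthase, was at 50.5 ± 1.72 and 53.8 ± 1.34 TPM (log2 difference 0.09, adjusted p = 0.18). Asl, argininosuccinate lyase, was at 43.4 ± 0.078 and 40.7 ± 0.45 TPM (-0.09, adjusted p = 0.13), and passed with trimmed-mean scaling. The hepatic urea cycle genes Otc and Cps1 were listed at 0 in every library. Of the 5 kept genes of this group 1 rose and 1 fell. Ddah2, of the family that breaks down methylated arginines, rose from 12.1 ± 1.11 to 20.9 ± 0.28 TPM (0.74, SE 0.072, adjusted p = 0.0020). Gatm, which uses arginine in the first step of creatine synthesis, fell from 95.8 ± 4.28 to 73.7 ± 3.54 TPM (-0.37, SE 0.052, adjusted p = 0.0057).

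Of 7 kept genes of the other nitric oxide synthases and their tetrahydrobiopterin cofactor, 2 rose and 0 fell. Gch1, the entry enzyme of cofactor synthesis, rose from 12.6 ± 0.21 to 21.2 ± 0.69 TPM (0.70, SE 0.053, adjusted p = 9.5e-04). Its difference has the opposite sign to that of Nos2. Nosip, which binds the endothelial nitric oxide synthase, rose from 35.9 ± 1.04 to 41.3 ± 0.86 TPM (0.20, SE 0.044, adjusted p = 0.024), and the call was lost with trimmed-mean and spike-in scaling and without WT replicate 2 or either Tet2 KO library. Nos1 and Nos3 did not exceed 0.01 and 0.37 TPM in any library.

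Where ornithine meets proline, 1 of 7 kept genes rose and 1 fell. Aldh18a1, which starts proline and ornithine synthesis from glutamate, rose from 65.8 ± 1.15 to 90.5 ± 3.10 TPM (0.46, SE 0.041, adjusted p = 0.0016). Pycr1, a mitochondrial enzyme of the last step to proline, fell from 16.1 ± 1.31 to 11.2 ± 1.61 TPM (-0.49, SE 0.11, adjusted p = 0.024), a call lost without WT replicate 1 or Tet2 KO replicate 1. Oat, ornithine aminotransferase, which links ornithine to that route, was at 76.7 ± 1.66 and 79.5 ± 0.64 TPM (0.05, adjusted p = 0.33).

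The regulators of ornithine decarboxylase and the enzymes around the synthases had 15 kept genes, of which 4 rose and 1 fell. Atp13a3, a polyamine transporter, rose from 57.0 ± 0.45 to 76.1 ± 0.61 TPM (0.41, SE 0.035, adjusted p = 0.0014). Adi1 and Mtap, enzymes of the salvage of methylthioadenosine left over by the synthases, rose by 0.22 (adjusted p = 0.012) and 0.31 (adjusted p = 0.016). Paox, the oxidase of acetylated polyamines made by Sat1, rose by 0.26 (adjusted p = 0.021). These 3 calls were lost with spike-in scaling and without either Tet2 KO library, and those of Mtap and Paox also without WT replicate 1. Azin2, an antizyme inhibitor, fell from 2.32 ± 0.29 to 0.50 ± 0.092 TPM (-1.15, SE 0.14, adjusted p = 0.0041). Azin1, the far more abundant antizyme inhibitor, was at 66.5 ± 1.34 and 64.0 ± 0.14 TPM (-0.05, adjusted p = 0.31). Smox, which oxidises spermine, was at 43.7 and 47.4 TPM (0.12, adjusted p = 0.085).

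The donor of aminopropyl groups comes from S-adenosylmethionine decarboxylase, for which the table lists Amd1 and its near-copy Amd2. Their coding sequences were identical at 1001 of 1002 bases, and 86.1% of the 50-base windows of Amd1 were found in Amd2. Amd1 was listed at 0 in both WT libraries and at 10.2 and 0 TPM in the Tet2 KO libraries. The sum of Amd1 and Amd2 was 83.2 and 82.4 TPM in WT and 84.5 and 79.1 TPM in the Tet2 KO libraries, and the groups overlapped.

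Downstream of spermidine, 0 of 3 kept genes of hypusine synthesis and its carrier rose and 1 fell. Eif5a, the translation factor that carries hypusine, fell from 1317 ± 76.4 to 1172 ± 17.3 TPM (-0.17, SE 0.047, adjusted p = 0.047), a call lost in 11 alternatives, among them leaving out WT replicate 2 or either Tet2 KO library. Of 5 genes listed under arginine sensing, general mTORC1 genes included, Castor2, listed as Gatsl2, fell from 4.50 ± 0.48 to 2.65 ± 0.12 TPM (-0.59, SE 0.10, adjusted p = 0.012). Rptor, the mTORC1 subunit raptor, rose by 0.18 (adjusted p = 0.040), a call lost in 12 alternatives that include leaving out any 1 library, and the Castor2 call was lost without either Tet2 KO library. The other 3, Castor1 and Mtor among them, did not pass, although Castor1 did with the replicate block.

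Of 8 listed regulators of Arg1 transcription, all kept, 1 rose and 2 fell, each by less than Arg1. By log2 difference the fall of Arg1 had rank 2 among 11837 kept genes, so a smaller fall sets no list apart. The part of these regulators in the level of Arg1 was not tested. Il4ra, the receptor chain for the cytokines that induce Arg1 in macrophages, rose from 43.2 ± 0.37 to 53.2 ± 0.87 TPM (0.29, SE 0.038, adjusted p = 0.0049). Stat6, the factor that this receptor activates, fell from 111 ± 3.56 to 95.3 ± 1.44 TPM (-0.22, SE 0.039, adjusted p = 0.012). Spi1, the myeloid factor PU.1, fell from 237 ± 3.27 to 198 ± 3.23 TPM (-0.26, SE 0.032, adjusted p = 0.0041). Cebpb, another inducer of Arg1, was at 217 ± 13.1 and 199.7 ± 6.11 TPM (-0.12, adjusted p = 0.14). Its log2 difference was -0.06 without WT replicate 1 and -0.18 without WT replicate 2. Pparg, Ppard, Klf4 and Hif1a did not pass either. The call of Il4ra was lost with spike-in scaling and without Tet2 KO replicate 1, that of Spi1 without Tet2 KO replicate 2, and that of Stat6 without either.

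**Figure D3:**
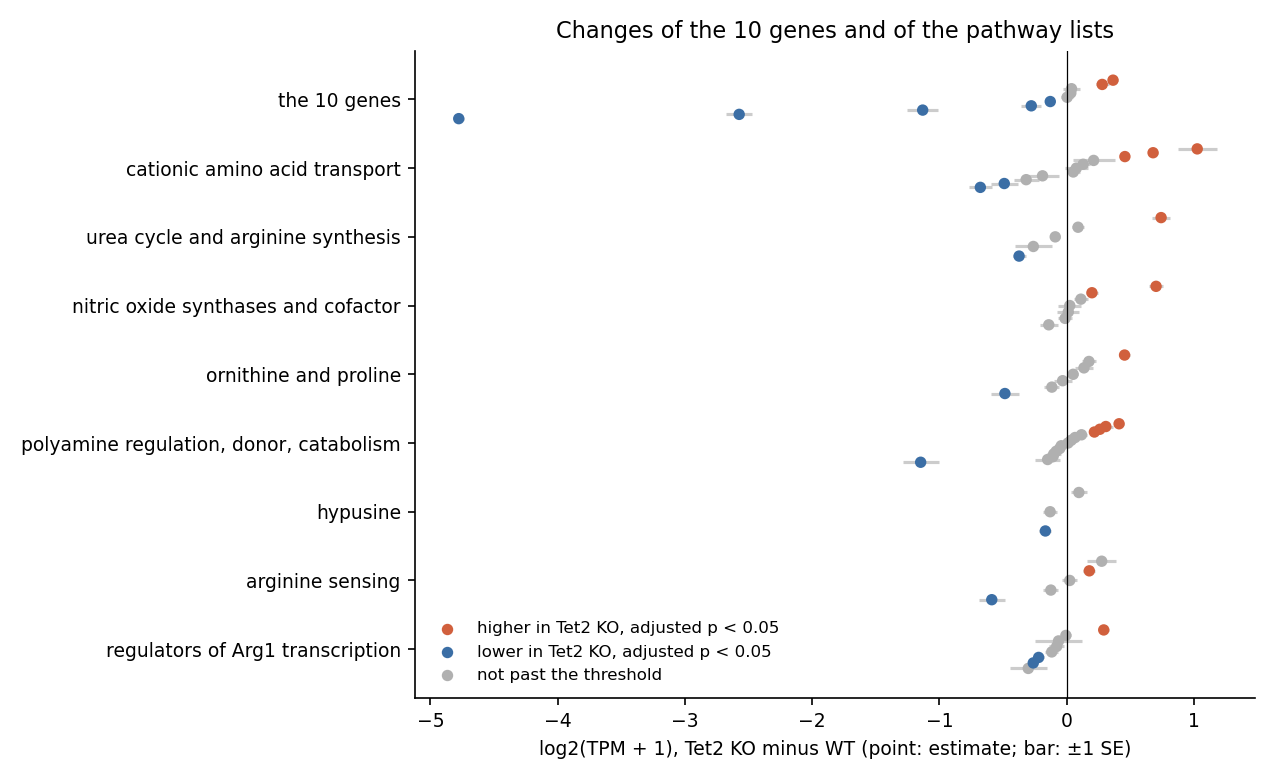
Log2 difference of log2(TPM + 1), Tet2 KO minus WT, for each of the 10 genes (top line) and each kept gene of the 8 pathway lists, with bars of 1 SE and colour for the side of the threshold. In the pathway lists the differences run from -1.15 (Azin2) to 1.03 (Slc7a3), and Arg1 at -4.78 and Slc7a2 at -2.57 lie outside that range.

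The genes whose pattern over the 4 libraries was nearest to that of Arg1 were found by the Euclidean distance between centred log2(TPM + 1) profiles. They were Retnla (distance 0.17), Car4 (1.22), Ccl24 (1.38), Mir7014 (1.59) and Chil3 (1.61). Retnla and Chil3 encode a resistin-like and a chitinase-like secreted protein, Ccl24 a chemokine for eosinophils, and Car4 a carbonic anhydrase at the membrane. Retnla was at 194 and 189.9 TPM in WT and at 5.38 and 5.23 TPM in the Tet2 KO libraries, and Chil3 at 587 and 593 TPM and at 68.0 and 62.0 TPM. Mir7014, a miRNA gene in an mRNA library, was at 6.05 and 14.7 TPM in WT and listed at 0 in both Tet2 KO libraries. With 2 groups of 2 libraries this likeness mostly ranks genes by the size of their difference between the groups.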

How the data were processed

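The authors deposited 1 table with 4 libraries, whose values were read as TPM because each column sums to about 1000000. The submitters' processing notes name RSEM, STAR and the build mm10. Versions, annotation, strand setting and read length are not given in the sources used here. TPM keep no depth, so no counting interval is given. The 92 spike-in sequences were not tested. The filter asked for 1 TPM or more in 2 or more libraries, and log2(TPM + 1) was compared with limma 3.58.1 in R 4.3.3 (variance trend, no replicate block, two-sided, Benjamini-Hochberg adjustment over 11837 genes, threshold 0.05). The limma step was tested on simulated data. With 2 libraries a group, an exact two-sided permutation test gives no p below 0.333, and calls lean on limma's pooled variance. No label states that replicates were separate cultures, so p-values measure only the spread between the libraries. The 10 genes and all lists were chosen with earlier results of these data known. Named genes are the 10, up to 3 called genes per direction and list, Azin1, Amd1, Oat, Ass1 and Asl, and the 5 nearest to Arg1. Others named with values (Paox, Slc7a6, Smox, Castor1, Mtor, Cebpb, Amd2, Vti1b and marker genes) were added after their values were seen. Sequences and coordinates came from GENCODE mouse transcripts on GRCm38, the mm10 assembly. Windows of 50 bases were matched on both strands, and coding sequences were aligned with Biopython 1.88. The sequence of 1 gene and the results of 1 marker list are not reported here.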

Additional observations from a re-analysis of the deposited data

How the results depend on the processing

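With scaling to the spike-ins 2108 genes passed in place of 3606, and with an adjusted p under 0.01, 1505 passed. Of the pathway genes 12 in place of 22 passed at an adjusted p under 0.01. Leaving out 1 library each gave 1239 to 3255 genes and 10 to 18 pathway genes. A library left alone in its group was assumed to vary like the other group. The log2 ratio of Slc7a1 plus Slc7a2 was -0.056 with trimmed-mean scaling and -0.13 with spike-in scaling, and that of Arg1 plus Arg2 was -4.58 and -4.65. Each of these scalings applies 1 factor to all genes of a library, and in these data the factors lowered the ratio of each sum alike. Deviations of same-numbered libraries had r = -0.114 across 11837 genes. With 2 libraries a group this cannot show whether the replicate numbers mark pairs. With the replicate block 3071 genes and 22 pathway genes passed, and with the pairing crossed, chosen after seeing the data, 3463 and 21. Rescaling without the spike-ins and Rn45s, also chosen after seeing the data, gave 3688 and 22. Unknown depth limits what can be said of Slc7a2, Slc7a3, Azin2 and other genes near 1 TPM.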
